A study of Mus musculus with 6 samples.

Results

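MHC class I presentation in M2 macrophages (Mφs) was described through 10 genes. They are the heavy chains H2-K1 and H2-D1, the light chain B2m, the peptide transporter subunits Tap1 and Tap2, the loading factor Tapbp, the immunoproteasome subunits Psmb8, Psmb9 and Psmb10, and the transcriptional activator Nlrc5. They were chosen by gene symbol from the 41549 rows of the deposited table, and all 10 had a row. The libraries came from bone marrow of young adult wild-type C57Bl/6N mice, grown into Mφs with M-CSF. Naive (M0) cells were transfected, with a lipid reagent, with a control antisense (Ctr) or with an LNA antisense against the tRNA fragment 5′tRF-Glu(CTC) (αGlu), and were then polarized to M2 with IL-4 and IL-13. Each group had 3 libraries of stranded mRNA, numbered 1 to 3. Both groups thus shared the transfection and both cytokines. The fragment itself was not measured in these libraries. The comparison asks how the mRNA of the class I pathway stood in M2 Mφs when the fragment was blocked.

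MHC class I molecules show peptides from the cell's own proteins to CD8 T cells. Proteasomes cut the proteins, TAP carries the peptides into the endoplasmic reticulum, tapasin holds an empty heavy chain with β2-microglobulin next to TAP, and a filled complex moves to the surface. Interferons raise most genes of this pathway and exchange catalytic proteasome subunits for the immunoproteasome forms, while NLRC5 acts at class I promoters. Mφs carry class I molecules on their surface and can use them for peptides from engulfed material as well.

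The oligonucleotide that separates the groups and the stretch it targets are shown first, since they define the comparison. Capitals in the target mark the bases complementary to the antisense, positions 2 to 21 of 21, and the antisense has 20 bases.
antisense: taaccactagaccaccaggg
target: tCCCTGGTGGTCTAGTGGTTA

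The promoters of both heavy chains are shown next because these genes differ in the results while their promoters are close to each other, and that of B2m is shown because its product pairs with either. RefSeq windows of 300 bases (250 before the annotated start and 50 from it, build GRCm38.p6) matched 8 of the 10 genes. Windows for Tap2 and Nlrc5 were not analysed here. Capitals mark matches, on either strand, to an interferon-stimulated response element (ISRE, 2 GAAA half-sites with 2 bases between them), a GAS element (TTCNNNGAA), an NF-kB motif, a CRE half-site (TGACG) or a CCAAT box (CCAAT). No matches to different motifs overlapped.
H2-K1, chr17:34000298-34000597, minus strand: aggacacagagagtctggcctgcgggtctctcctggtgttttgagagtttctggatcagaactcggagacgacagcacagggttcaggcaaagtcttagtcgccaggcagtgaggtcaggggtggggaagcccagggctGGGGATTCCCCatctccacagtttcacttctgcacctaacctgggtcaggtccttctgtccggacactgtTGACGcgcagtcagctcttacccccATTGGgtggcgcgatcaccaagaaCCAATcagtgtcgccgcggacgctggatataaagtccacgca
H2-D1, chr17:35262844-35263143, plus strand: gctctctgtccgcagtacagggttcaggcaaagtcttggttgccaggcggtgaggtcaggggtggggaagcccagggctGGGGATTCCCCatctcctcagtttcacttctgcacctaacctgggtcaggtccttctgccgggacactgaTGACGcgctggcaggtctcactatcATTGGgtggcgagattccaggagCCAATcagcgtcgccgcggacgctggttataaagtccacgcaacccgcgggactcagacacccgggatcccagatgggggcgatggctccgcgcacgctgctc
B2m, chr2:122147437-122147736, plus strand: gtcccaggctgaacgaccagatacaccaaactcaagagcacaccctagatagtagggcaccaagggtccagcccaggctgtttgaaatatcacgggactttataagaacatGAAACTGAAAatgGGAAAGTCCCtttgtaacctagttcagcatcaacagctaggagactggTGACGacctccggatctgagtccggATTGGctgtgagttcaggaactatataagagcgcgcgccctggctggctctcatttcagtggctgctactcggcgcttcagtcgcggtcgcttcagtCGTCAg

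The H2-K1 and H2-D1 windows aligned over 239 positions, of which 211 (88.3%) were identical. Both held the same NF-kB block, CRE half-site and pair of CCAAT boxes in the same order. Counting the annotated start as 0, the NF-kB block began at -111 in H2-K1 and at -171 in H2-D1, because the annotated starts differ. The B2m window held an ISRE match from -139 to -130 and an NF-kB match from -126 to -117. Among the other windows, that of Psmb8 held a GAS match, those of Tap1 and Psmb9 a CRE half-site and a CCAAT box, and that of Tapbp CCAAT boxes only. The Tap1 and Psmb9 windows have 275 bases in common, so their matches are the same sites read from opposite strands. The Psmb10 window held none of the 5 motifs. Of all 32851 RefSeq windows, 3.4% held the ISRE, 8.3% the GAS element, 8.5% the NF-kB motif, 20.8% TGACG and 37.4% CCAAT, so the last 2 are common letters. A match describes the sequence and not a bound site. The patterns are strict, so a site that differs from them is left unmarked, and a window without a match may still hold one.

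By GENCODE M21 on GRCm38, 7 of the 10 genes lie on chromosome 17. Psmb9 (chr17:34181987-34187764, minus strand), Tap1 (chr17:34187553-34197225, plus strand), Psmb8 (chr17:34197721-34201454, plus strand) and Tap2 (chr17:34203527-34216321, plus strand) stand side by side in 34.3 kb. Tapbp (chr17:33915899-33929292, plus strand) and H2-K1 (chr17:33996017-34000347, minus strand) lie to one side of this cluster and H2-D1 (chr17:35262730-35267499, plus strand) to the other. B2m is at chr2:122147686-122153083 (plus strand), Psmb10 at chr8:105935735-105938444 (minus strand) and Nlrc5 at chr8:94434356-94527272 (plus strand). Tap1 and Psmb9 face away from each other, and their exons share 212 bases on opposite strands. The Tapbp exons share 149 bases with Zbtb22 on the same strand. The libraries were stranded, but the strand setting of the counting was not given in the sources used here. Of the 50-base stretches in H2-D1 transcripts 12.8% also occur in another gene, and of those in H2-K1 9.6%. These shares fell to 3.6% and 1.0% for 100-base stretches, and the other 8 genes shared at most 2.9% of 50-base stretches.

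Total counts were between 17912831 and 30386653 reads per library, and between 14539 and 15295 genes had reads. All 8 Mφ markers had a mean above 1 CPM, a count scaled to the same total in every library, whereas 0 of 8 dendritic cell markers and 0 of 6 B cell markers did. Of 10 neutrophil markers 3 did, led by Csf3r, while Ly6g and Retnlg had no reads. Also above a mean of 1 CPM were 1 of 10 T and NK cell markers (Cd4) and 1 of 6 mast cell and basophil markers (Prss34). Among fibroblast and stroma markers it was 1 of 8 (Postn). The summed neutrophil markers were at 107 to 160 CPM in Ctr, 187 CPM in αGlu 1, and 539 and 609 CPM in αGlu 2 and 3. Their part in the results was not tested. In bulk RNA, fewer cells of a type and less RNA per cell cannot be told apart.

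Both groups held a library that stood apart. Over all genes, αGlu 1 was nearer to the Ctr libraries than to its own group: the chi-square statistic per gene was 31.5 and 26.7 against Ctr 2 and 3, and 253 and 251 against αGlu 2 and 3. Ctr 1 stood apart in interferon-stimulated genes. The mean log2 CPM of 24 such genes was 4.71 in Ctr 1 and from 7.04 to 7.45 in the other 5 libraries. Results for the class I genes are therefore given with and without these libraries.

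The heavy and light chain mRNAs were among the most abundant of these cells, and the 10 genes together took from 1.27% to 2.03% of all counts. TPM values, which the authors scaled for exon length and to the same total in every library, were used to compare levels between genes. By GENCODE M21 the exons of a gene together cover 860 bases for B2m, 1705 for Psmb10, 3381 for Psmb8 and 3660 for Psmb9. An mRNA that holds only part of these exons has a TPM below its true level, so the order of genes is approximate. By TPM, B2m ranked from 3 to 8 among all genes of a library, H2-D1 from 13 to 18 and H2-K1 from 20 to 52. B2m lay at 14850 to 25530 TPM, H2-D1 at 5719 to 9239 TPM and H2-K1 at 2014 to 5039 TPM. These 3 ranges were apart from each other and from that of Tapbp, at 482 to 788 TPM. Tapbp lay above Psmb10 (313 to 577 TPM) in all 6 libraries, although the 2 ranges overlapped. Psmb8 followed at 171 to 310 TPM, apart from its neighbours on both sides. Tap1 (45.5 to 156 TPM) and Tap2 (67.3 to 119 TPM) overlapped, and Tap1 was the higher in 5 of 6 libraries. Psmb9 (37.1 to 70.4 TPM) and Nlrc5 (20.2 to 53.3 TPM) were the lowest, with overlapping ranges. The TAP subunits were thus far below the heavy chains in TPM, and Psmb9 below the other immunoproteasome subunits in every library.

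No class I gene passed the test in all 6 libraries. By edgeR's quasi-likelihood test at a Benjamini-Hochberg adjusted p under 0.1, 0 of the 10 were called, and 0.0% of the 11933 genes tested were. At an unadjusted p under 0.05 the count was 0 of 10, against 24.7% of all genes. The median log2 fold change (αGlu over Ctr) was 0.32 over the 10 genes and 0.02 over all genes tested. The median of the 10 was 0.14 without Ctr 1, 0.25 without αGlu 1 and 0.03 without both. For 4 genes, H2-K1, Tap1, Psmb8 and Psmb9, every αGlu library was above every Ctr library, which 14.2% of all genes did. None of the 10 had every αGlu library below every Ctr library, which 15.9% of all genes did. DESeq2 also called 0 of 10, where it called 7.77% of all genes as higher and 8.13% as lower, and limma-voom called 0 of 10 and 0 of all genes.

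**Figure D1:**
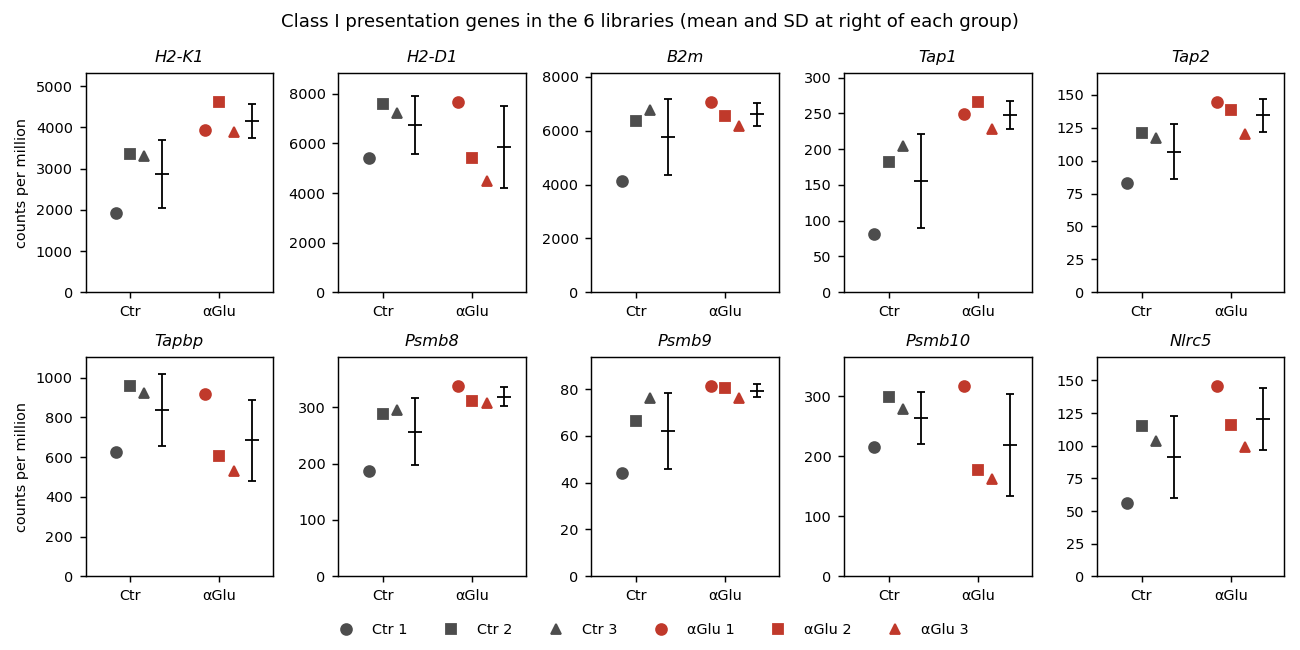
CPM (vertical axis, from 0) of the 10 class I genes in the 3 Ctr (grey) and 3 αGlu (red) libraries, with the symbol giving the library number and the bar the mean and SD of a group (n = 3). Ctr 1 (grey circle) is the lowest library for 7 genes, whereas αGlu 2 and 3 (red square and triangle) fall below Ctr 2 and 3 for H2-D1, Tapbp and Psmb10.

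The classical heavy chains of this strain bind the peptide and are what CD8 T cells see. H2-K1 was at 1923, 3359 and 3317 CPM in Ctr 1, 2 and 3, against 3945, 4622 and 3887 CPM in αGlu 1, 2 and 3. The groups did not overlap, and Ctr 1 lay well below the rest. The means were 2866 ± 817 and 4151 ± 409 CPM (SD, n = 3), a log2 fold change of 0.53 ± 0.27 (SE, edgeR adjusted p = 0.263). Without Ctr 1 the log2 fold change of H2-K1 was 0.32.

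H2-D1 took another course. It was at 5429, 7582 and 7228 CPM in Ctr 1, 2 and 3, against 7681, 5413 and 4487 CPM in αGlu 1, 2 and 3. αGlu 1 was the highest of the 6 and αGlu 2 and 3 were, with Ctr 1, the lowest, so the groups overlapped. The log2 fold change of H2-D1 was -0.20 ± 0.29 (edgeR adjusted p = 0.671). Without αGlu 1 it was -0.45 ± 0.18 (edgeR adjusted p = 0.0905), which passed the threshold.

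Set against each other within a library, the 2 heavy chains separated the groups, a pattern chosen after the values had been seen and therefore not tested. The TPM of H2-K1 divided by that of H2-D1 was 0.311, 0.389 and 0.403 in Ctr 1, 2 and 3. It was 0.451 in αGlu 1, and 0.750 and 0.760 in αGlu 2 and 3. αGlu 1 lay next to the Ctr libraries, and H2-K1 stayed below H2-D1 in all 6. On the log2 scale the group means differed by 0.80. The promoter windows printed above were 88.3% identical, and the transcripts share the stretches counted above.

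B2m codes for β2-microglobulin, the light chain that every class I heavy chain needs. It was at 4151, 6352 and 6788 CPM in Ctr 1, 2 and 3, against 7077, 6544 and 6195 CPM in αGlu 1, 2 and 3. The 3 αGlu libraries lay around the values of Ctr 2 and 3, and Ctr 1 alone was low. The log2 fold change of B2m was 0.20 ± 0.26 (edgeR adjusted p = 0.646), and without Ctr 1 it was 0.02.

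TAP1 and TAP2 form the transporter that brings peptides to the heavy chains. Tap1 was at 81.0, 182 and 204 CPM in Ctr 1, 2 and 3, against 248, 266 and 228 CPM in αGlu 1, 2 and 3. It had the highest log2 fold change of the 10 genes, 0.67 ± 0.34 (edgeR adjusted p = 0.261), and its groups did not overlap. The fold change was 0.37 on the log2 scale without Ctr 1. Tap2 was at 82.7, 121 and 117 CPM in Ctr 1, 2 and 3, against 145, 139 and 120 CPM in αGlu 1, 2 and 3. Only αGlu 3 and Ctr 2 made the groups overlap, and the fitted log2 fold change of Tap2 was 0.33 ± 0.17 (edgeR adjusted p = 0.263), or 0.185 without Ctr 1.

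Tapbp codes for tapasin, which bridges TAP and the empty heavy chain. It was at 628, 959 and 924 CPM in Ctr 1, 2 and 3, against 917, 605 and 532 CPM in αGlu 1, 2 and 3. As for H2-D1, αGlu 1 was with Ctr 2 and 3 while αGlu 2 and 3 were below all Ctr libraries. The log2 fold change of Tapbp was -0.29 ± 0.27 (edgeR adjusted p = 0.509), and -0.56 ± 0.20 without αGlu 1 (edgeR adjusted p = 0.0647).

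The immunoproteasome subunits replace constitutive catalytic subunits and alter which peptide ends are cut. Psmb8 was at 187, 289 and 294 CPM in Ctr 1, 2 and 3, against 338, 312 and 307 CPM in αGlu 1, 2 and 3. Psmb9 was at 44.1, 66.2 and 76.0 CPM in Ctr 1, 2 and 3, against 81.4, 80.5 and 76.2 CPM in αGlu 1, 2 and 3. Neither overlapped between groups, although αGlu 3 and Ctr 3 were almost level for Psmb9. Their log2 fold changes were 0.31 ± 0.19 for Psmb8 and 0.35 ± 0.20 for Psmb9 (edgeR adjusted p = 0.329 and 0.297), and without Ctr 1 they were 0.14 and 0.17. Psmb10 was at 215, 298 and 278 CPM in Ctr 1, 2 and 3, against 317, 176 and 162 CPM in αGlu 1, 2 and 3. It was lowest in αGlu 2 and 3 and highest in αGlu 1. The log2 fold change of Psmb10 was -0.27 ± 0.29 (edgeR adjusted p = 0.566), and -0.64 ± 0.15 without αGlu 1 (edgeR adjusted p = 0.018).

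Nlrc5 codes for the activator that acts at class I promoters, as CIITA does at those of class II. It was at 55.8, 115 and 103 CPM in Ctr 1, 2 and 3, against 146, 116 and 99.0 CPM in αGlu 1, 2 and 3. Only Ctr 1 and αGlu 1 left the band from 99.0 to 116 CPM. The log2 fold change of Nlrc5 was 0.40 ± 0.29 (edgeR adjusted p = 0.407), and 0.15 without Ctr 1.

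**Figure D2:**
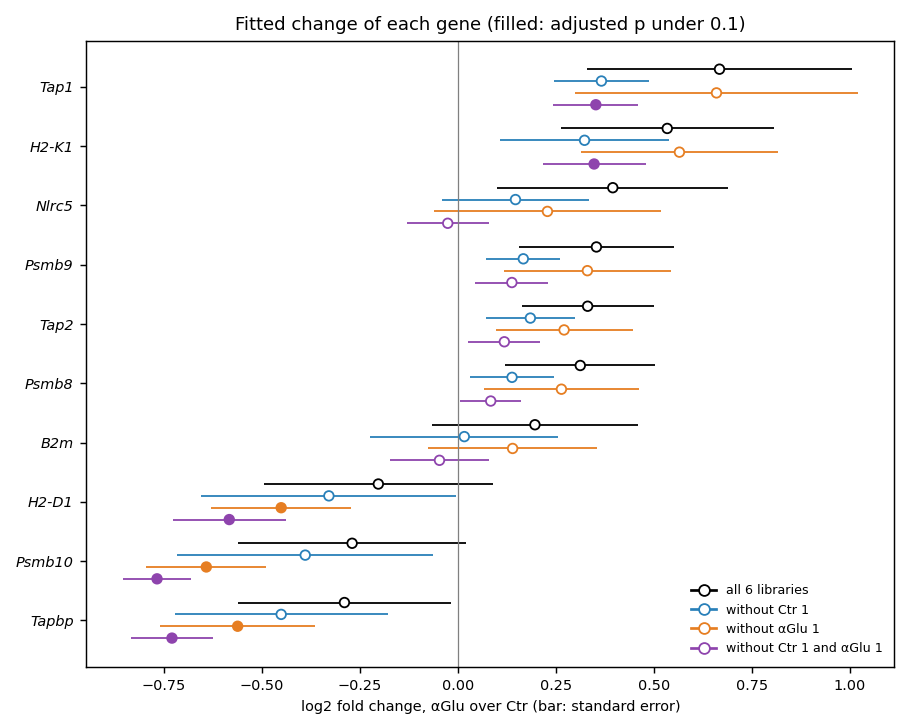
Log2 fold change (αGlu over Ctr, horizontal axis) of each class I gene with its SE, fitted to all 6 libraries and without Ctr 1, αGlu 1 or both. Filled points passed an adjusted p under 0.1: none with all libraries or without Ctr 1, 3 genes without αGlu 1 and 5 genes without both. With all libraries and without Ctr 1, no gene of the whole table passed either.

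The calls depended on the 2 libraries that stood apart. Without αGlu 1, 3 of the 10 genes fell, H2-D1, Tapbp and Psmb10, where 25.6% of 12340 genes tested were called as lower and 23.5% as higher. H2-K1 then had a log2 fold change of 0.57 and an edgeR adjusted p of 0.121, and the 7 genes that were not called lay between 0.14 for B2m and 0.66 for Tap1. With Ctr 1 left out as well, a setting chosen after the data had been seen, 5 of the 10 were called. H2-D1 (log2 fold change -0.58, edgeR adjusted p = 0.0206), Tapbp (-0.73, 0.00252) and Psmb10 (-0.77, 0.00101) fell, where 25% of 12239 genes were called as lower. H2-K1 (0.35, 0.0817) and Tap1 (0.35, 0.044) rose, where 23.7% were called as higher. The remaining 5, B2m, Tap2, Psmb8, Psmb9 and Nlrc5, had log2 fold changes from -0.05 to 0.14 there. With 2 libraries against 2, and about as large a share of all genes called, these counts are a description of the 4 libraries. Leaving out Ctr 1 alone gave 0 calls among the 10 and 0 among all 12252 genes tested. The log2 fold changes of the 10 then ran from -0.45 for Tapbp to 0.37 for Tap1.

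The mean profile of H2-D1, Tapbp and Psmb10 and that of the other 7 genes were set side by side, a grouping made after the values had been seen. Each gene's log2 CPM was centred on its mean over the libraries. The 3 genes averaged -0.18, 0.34 and 0.27 in Ctr 1, 2 and 3 and 0.36, -0.30 and -0.49 in αGlu 1, 2 and 3. The other 7 averaged -0.75, 0.02 and 0.06 in Ctr 1, 2 and 3 and 0.30, 0.26 and 0.10 in αGlu 1, 2 and 3. On average, the largest step for the 7 genes was between Ctr 1 and the other 5 libraries. Of these genes, H2-K1, Tap1, Psmb8 and Psmb9 were also higher in every αGlu library than in Ctr 2 and 3. For the 3 genes αGlu 2 and 3 were lowest on average. Ctr 1, at -0.18, was low as well and lay between them and the libraries Ctr 2, Ctr 3 and αGlu 1.

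**Figure D3:**
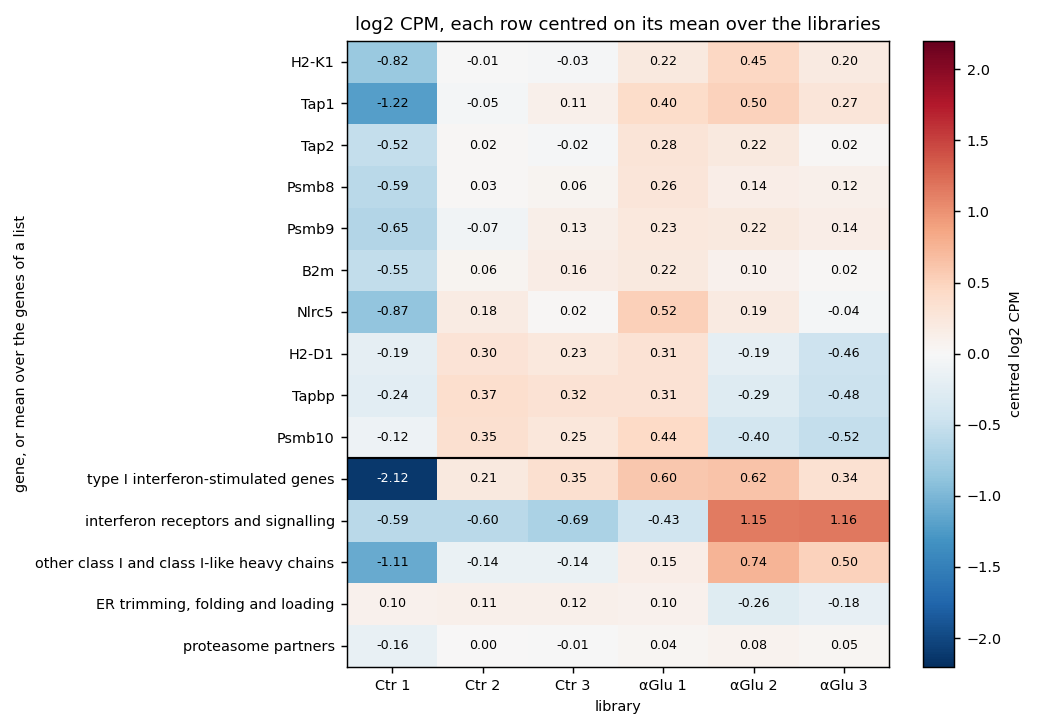
Log2 CPM of each class I gene (above the line) and the mean over the genes of 5 lists (below it) in the 6 libraries, each row centred on its own mean, with blue below and red above it. Ctr 1 is lowest in the first 7 rows and in the interferon-stimulated genes (-2.12), and αGlu 2 and 3 are lowest in H2-D1, Tapbp and Psmb10.

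Immunoproteasome subunits were compared with the constitutive subunits whose places they take, as log2 ratios of TPM within a library, with a two-sided exact permutation test. With 3 against 3 libraries the smallest exact permutation p is 0.1. Psmb9 to Psmb6 was -3.43, -3.03 and -2.66 in Ctr 1, 2 and 3 and -2.62, -2.62 and -2.60 in αGlu 1, 2 and 3. The groups did not overlap, the 3 αGlu libraries were nearly equal, and Ctr 3 was close to them. The means differed by 0.42 (exact p = 0.1, adjusted over the 3 ratios 0.3), with SDs of 0.39 in Ctr and 0.01 in αGlu (n = 3). That difference was 0.23 without Ctr 1.

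The other 2 ratios overlapped between groups, and the difference in Psmb10 to Psmb7 was -0.87 without αGlu 1. Psmb8 to Psmb5 was -0.71, -0.18 and -0.05 in Ctr 1, 2 and 3 and 0.16, -0.57 and -0.34 in αGlu 1, 2 and 3 (difference of means 0.06, exact p = 0.9, adjusted 0.9). Psmb10 to Psmb7 was 2.60, 3.03 and 2.98 in Ctr 1, 2 and 3 and 3.24, 2.03 and 1.97 in αGlu 1, 2 and 3 (difference of means -0.46, exact p = 0.4, adjusted 0.6). In TPM, Psmb10 was therefore above Psmb7 in each library, at ratios from 3.92 to 9.44, while Psmb9 reached 0.0927 to 0.165 of Psmb6. The size of these ratios also depends on the exon lengths used, which cancel in differences between libraries. Among the constitutive subunits, Psmb5 was at 81.3, 87.1 and 80.8 CPM in Ctr 1, 2 and 3, against 80.5, 123 and 103 CPM in αGlu 1, 2 and 3. The fitted log2 fold change of Psmb5 was 0.30 ± 0.16 (edgeR adjusted p = 0.278). Psmb6 and Psmb7 had log2 fold changes of -0.04 and 0.14 (edgeR adjusted p = 0.824 and 0.424).

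The 2 further ratios below were chosen after the values had been seen, so they carry no test. Psmb8 to Psmb10 by TPM was 0.441, 0.489 and 0.534 in Ctr 1, 2 and 3 and 0.538, 0.892 and 0.954 in αGlu 1, 2 and 3. Tap1 to Tapbp was 0.0854, 0.126 and 0.146 in Ctr 1, 2 and 3 and 0.18, 0.291 and 0.283 in αGlu 1, 2 and 3. Both kept every αGlu library above every Ctr library, with αGlu 1 the lowest of its group and, for Psmb8 to Psmb10, almost level with Ctr 3.

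**Figure D4:**
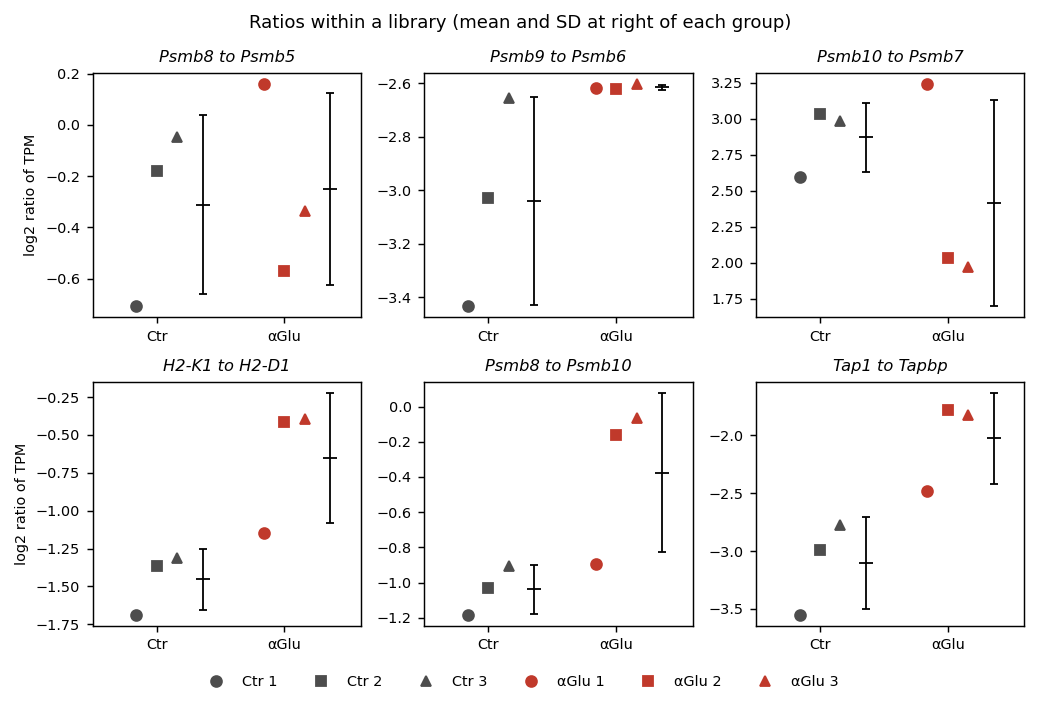
Log2 ratio of TPM (vertical axis) between pairs of genes in the 6 libraries, with the mean and SD of each group (n = 3) at its right. The upper row holds the 3 ratios that were tested, of which only Psmb9 to Psmb6 does not overlap, and the lower row the 3 ratios chosen after the values had been seen, with αGlu 1 near the Ctr libraries and αGlu 2 and 3 above them.

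The rest of the pathway was described by 9 lists with 126 genes. In each list 0 genes were called with all 6 libraries, so the lists are given by counts and medians. Over all 11933 genes tested, 12.7% were higher and 11.9% lower at an unadjusted p under 0.05, with a median log2 fold change of 0.02. Genes said below to rise or fall were called at an adjusted p under 0.1. Of all genes, 23.5% so rose and 25.6% fell without αGlu 1, and 23.7% and 25% without Ctr 1 as well. DESeq2 called 7.77% as higher and 8.13% as lower. The list of other class I and class I-like heavy chains, which present to NK and unconventional T cells or bind lipids, metabolites or iron-uptake partners, had 15 tested genes. At an unadjusted p under 0.05, 7 were higher and 0 lower, the median log2 fold change was 0.66, and DESeq2 called 6 as higher. Without αGlu 1, 8 rose and 0 fell, and without Ctr 1 as well 9 rose and 2 fell. H2-Q7 was at 19.5, 109 and 95.9 CPM in Ctr 1, 2 and 3, against 182, 630 and 481 CPM in αGlu 1, 2 and 3. Its groups did not overlap, the log2 fold change was 2.53 ± 0.75 (edgeR adjusted p = 0.16, DESeq2 adjusted p = 0.0046), and without Ctr 1 and αGlu 1 it was 2.44 (edgeR adjusted p = 0.000102). Since 26.4% of its 50-base stretches occur in other H2-Q genes or their kin, reads may be split among them. H2-Q4 had a log2 fold change of 1.10 ± 0.34 (edgeR adjusted p = 0.162, DESeq2 adjusted p = 0.029), and 21.8% of its 50-base stretches are shared.

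H2-T23, the most abundant of this list, codes for Qa-1, which shows leader peptides of other class I chains to NK receptors. It was at 632, 1026 and 973 CPM in Ctr 1, 2 and 3, against 1064, 728 and 615 CPM in αGlu 1, 2 and 3. Its values thus stood like those of H2-D1, with αGlu 1 highest and αGlu 2 and 3 low, and the log2 fold change was -0.13 ± 0.28 (edgeR adjusted p = 0.784). Without Ctr 1 and αGlu 1 it was -0.58 (edgeR adjusted p = 0.00943).

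Of 8 factors for trimming, folding and loading in the endoplasmic reticulum, 3 were lower at an unadjusted p under 0.05 and 0 higher, with a median log2 fold change of -0.28. Without αGlu 1, 4 fell, and without Ctr 1 as well 5 fell. Calr, the chaperone calreticulin of the loading complex, was at 1423, 1434 and 1386 CPM in Ctr 1, 2 and 3, against 1196, 664 and 731 CPM in αGlu 1, 2 and 3. All αGlu libraries lay below all Ctr libraries, with αGlu 1 in between (log2 fold change -0.71 ± 0.25, edgeR adjusted p = 0.175, DESeq2 adjusted p = 0.0564). Pdia3, the oxidoreductase ERp57 that partners tapasin, had a log2 fold change of -0.37 ± 0.14 (edgeR adjusted p = 0.191, DESeq2 adjusted p = 0.0935).

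Of 13 proteasome partners, 2 were higher at an unadjusted p under 0.05, a share near that of all genes, and 0 lower, with a median of 0.14. Without αGlu 1, 5 rose and 1 fell, and without Ctr 1 as well 4 rose and 2 fell. The 2 genes under 0.05 were the activator genes Psme4 (0.34 ± 0.11, edgeR adjusted p = 0.162) and Psme3 (0.18 ± 0.07, edgeR adjusted p = 0.19). Of 9 tested genes for cytosolic peptidases and ubiquitin-like conjugation, 0 were higher and 2 lower, and without αGlu 1, with or without Ctr 1, 1 rose and 2 fell. The 2 lower ones were the peptidases Prep (-0.37 ± 0.10, edgeR adjusted p = 0.158) and Lap3 (-0.56 ± 0.17, edgeR adjusted p = 0.16). Ube2l6, the ISG15-conjugating enzyme and the most abundant of that list, was at 48.6 CPM in Ctr 1 and from 136 to 148 CPM in the other 5 libraries.

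Of 18 regulators of class I transcription, 1 was higher at an unadjusted p under 0.05 and 0 lower, with a median of 0.09. Without αGlu 1, 6 rose and 2 fell, and without Ctr 1 as well 6 rose and 3 fell. Nfkb1, an NF-kB subunit, was at 107, 113 and 110 CPM in Ctr 1, 2 and 3, against 111, 175 and 181 CPM in αGlu 1, 2 and 3 (0.50 ± 0.19, edgeR adjusted p = 0.19). Only αGlu 2 and 3 stood above the rest. Nfyc, a subunit of the factor that binds CCAAT, had a log2 fold change of -0.17 ± 0.07 (edgeR adjusted p = 0.212).

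Of 10 tested interferon receptors and signalling genes, 8 were higher at an unadjusted p under 0.05 and 0 lower, the median was 0.91, and DESeq2 called 8 as higher. Without αGlu 1, with or without Ctr 1, 8 rose and 0 fell. Socs1, an inhibitor of JAK signalling, was at 7.27, 8.94 and 9.23 CPM in Ctr 1, 2 and 3, against 12.2, 38.6 and 39.6 CPM in αGlu 1, 2 and 3 (1.83 ± 0.45, edgeR adjusted p = 0.156, DESeq2 adjusted p = 0.00257). Socs3, a related inhibitor, was under 1 CPM in Ctr and in αGlu 1 and at 221 and 216 CPM in αGlu 2 and 3. Jak2, a kinase of the interferon-γ receptor, was at 143 to 216 CPM in Ctr, at 207 CPM in αGlu 1 and at 762 and 840 CPM in αGlu 2 and 3 (1.66 ± 0.53, edgeR adjusted p = 0.162). In these 3 genes αGlu 2 and 3 stood far above the other 4 libraries.

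Of 24 type I interferon-stimulated genes, 1 was higher at an unadjusted p under 0.05 and 0 lower, with a median of 0.54 that was 0.14 without Ctr 1. Without αGlu 1, 1 rose and 0 fell, whereas without both libraries 8 rose and 7 fell. Bst2, an antiviral membrane protein and the most abundant of them, was at 106, 290 and 275 CPM in Ctr 1, 2 and 3, against 258, 383 and 318 CPM in αGlu 1, 2 and 3. Oasl1, an inhibitor of interferon production, was at 3.54 CPM in Ctr 1, at 37.4 and 35.8 CPM in Ctr 2 and 3, and at 49.9, 100 and 77.3 CPM in αGlu 1, 2 and 3. Cxcl10, a chemokine for T cells, was at most 0.459 CPM in Ctr and αGlu 1, against 7.43 and 5.14 CPM in αGlu 2 and 3. The low level of Ctr 1 in this list moved with its low level in the 7 class I genes above. For H2-D1, Tapbp and Psmb10, Ctr 1 was also below Ctr 2 and 3. The part of this low level in the class I genes was not tested.

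The class II and cross-presentation lists were taken for comparison. Of 9 tested class II genes, 6 were lower and 1 higher at an unadjusted p under 0.05, with a median of -0.52, and DESeq2 called 6 as lower and 2 as higher. Without αGlu 1, with or without Ctr 1, 10 class II genes were tested, of which 6 fell and 3 rose. Cd74, the invariant chain, was at 5832, 7308 and 7426 CPM in Ctr 1, 2 and 3, against 5056, 4735 and 4531 CPM in αGlu 1, 2 and 3 (-0.52 ± 0.21, edgeR adjusted p = 0.2). H2-DMb1, a chain of the class II peptide editor, had a log2 fold change of -0.51 ± 0.09 (edgeR adjusted p = 0.149), and H2-Oa, of its inhibitor, 4.07 ± 0.82 (edgeR adjusted p = 0.149) from levels under 1 CPM in Ctr. Of 8 cross-presentation genes 0 were higher and 1 lower, near the share of all genes, and without αGlu 1, with or without Ctr 1, 1 rose and 3 fell. The lower gene was Rab43, a vesicle GTPase (-0.87 ± 0.31, edgeR adjusted p = 0.178). Cybb, an NADPH oxidase subunit, and Unc93b1, a chaperone of endosomal receptors, had log2 fold changes of 0.46 and -0.32 (edgeR adjusted p = 0.275 and 0.29).

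**Figure D5:**
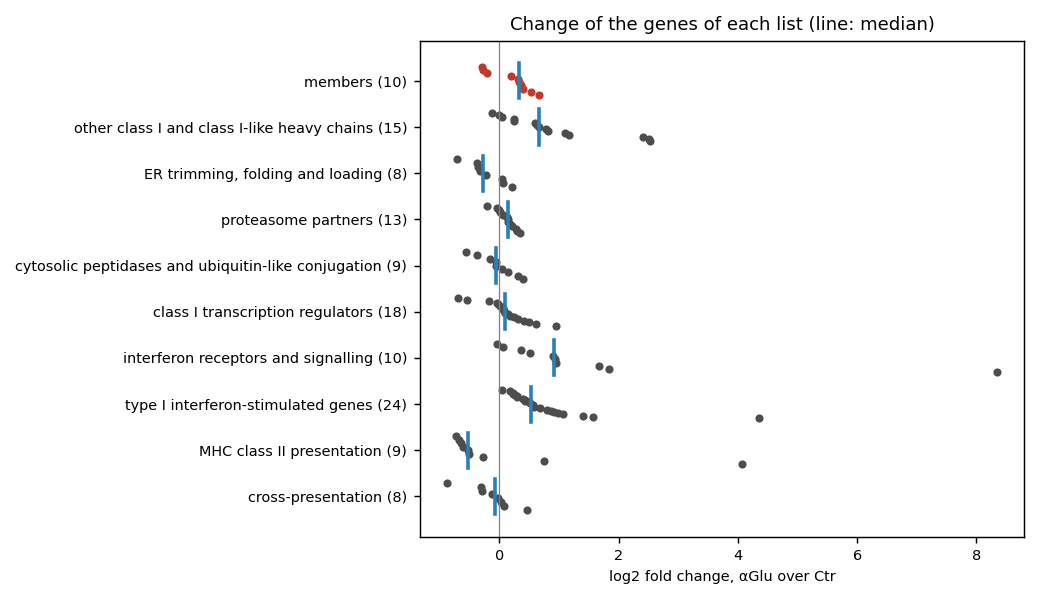
Log2 fold change (αGlu over Ctr, horizontal axis, all 6 libraries) of the 10 class I genes (red, members) and of the tested genes of 9 lists (grey), with the number of genes in brackets and the median as a blue line. The medians run from -0.52 for class II to 0.91 for interferon receptors and signalling, and the class I genes lie at 0.32.

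The genes whose centred log2 CPM was nearest to the mean profile of the 10 class I genes were found by the root mean square (RMS) difference over the 6 libraries. On the lists they were Psme2 (0.065), Psme1 (0.13), Irf9 (0.14), H2-T24 (0.15) and Tapbpl (0.16). Psme1 and Psme2 code for the PA28 cap of the proteasome, Irf9 for the DNA-binding part of the type I interferon complex, and Tapbpl for a relative of tapasin. Psme2 was at 156, 230 and 249 CPM in Ctr 1, 2 and 3, against 276, 217 and 207 CPM in αGlu 1, 2 and 3, with Ctr 1 lowest and αGlu 1 highest. Outside the lists the nearest were Ogfr (0.03), Tpst1, Rnf31, Slfn2 (0.05 each) and Rnf34 (0.06). The 10 genes themselves lay from 0.06 for B2m to 0.35 for Tap1 and Psmb10 from their mean. The 5 genes outside the lists lay closer to it than any class I gene did. They were picked as the nearest of the tested genes, so their closeness follows from that choice.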

How the data were processed

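Stranded mRNA of 3 Ctr and 3 αGlu libraries of M2 Mφs was measured by the authors, who ran the QIAGEN RNA-seq Analysis Portal. GRCm38 is the build in the submitters' processing notes. The aligner, the annotation and the treatment of multi-mapping reads are not given in the sources used here. The deposited counts are whole reads over the exons of a gene. The deposited TPM and RPKM values were scaled by the authors for exon length and depth. A further deposited CPM column was not used, and 0 value columns belonged to no sample.

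The counts were fitted with edgeR 4.0.16 in R 4.3.3 (filterByExpr with a minimum count of 10 and a minimum total of 15, TMM factors, a two-sided quasi-likelihood test with group as the single term). Genes were called at a Benjamini-Hochberg adjusted p under 0.1, without a fold limit. CPM are counts over the TMM-adjusted library size, with a prior count of 2 where on the log2 scale. Ratios of TPM took no pseudocount and were compared with SciPy 1.17.1. Alternatives were DESeq2 1.42.0, limma-voom (limma 3.58.1), other factors, filters and thresholds, the replicate number as a block, RPKM or a pseudocount of 1 TPM for ratios, and each library left out.

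The class I genes and the lists were chosen with earlier results of these data known. The text names the 10 genes, Psmb5, Psmb6 and Psmb7, of each list the 2 smallest p and the highest mean TPM, and the 5 nearest profiles on and off the lists. For 1 gene so named the values are not reported here. Of the list genes, H2-K2 and H2-T9 were not analysed here. The paper describes the libraries of a group as independent experiments, and says that replicates of primary cells come from different animals. The labels do not say which animal each library came from. The p-values measure the spread between these libraries, which may be partly technical. Same-numbered libraries were not treated as pairs. The models were tested on simulated counts with the same low dispersion for all genes and no library standing apart. That test therefore does not cover the spread between the libraries seen here.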

Additional observations from a re-analysis of the deposited data

How the results depend on the processing

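The number of class I genes called was 0 of 10 with all 6 libraries, and 0 with DESeq2, limma-voom, library size alone, upper-quartile or RLE factors, either other filter, the stricter thresholds and the replicate block. Leaving out 1 library gave from 0 to 3, the 3 being H2-D1, Tapbp and Psmb10 without αGlu 1. Without Ctr 1 and αGlu 1, chosen after the data had been seen, it was 5, and B2m (-0.047) and Nlrc5 (-0.0259) changed the sign of their log2 fold change. Over all genes 0 were called, 2179 by DESeq2, 17 with the replicate block, from 0 to 6055 leaving out 1 library (6055 without αGlu 1) and 5961 without Ctr 1 and αGlu 1. With a log2 fold change above 1 in addition, also chosen after the data had been seen, these were 1119 by DESeq2, 2290 without αGlu 1 and 2226 without both. The cause was not tested. Same-numbered libraries correlated in their deviations from the group means at 0.08, 0.06 and 0.15. Differently numbered ones ran from -0.11 (Ctr 3 and αGlu 1) to 0.05 (Ctr 3 and αGlu 2), all below the same-numbered values. Not all same-numbered values passed the limit of 0.1 used here, so the main test took no pairs. These weak correlations do not settle whether the libraries were paired, and the replicate block above gives the paired fit. For its qPCR of the fragment after this transfection, the paper used a paired t test, and it states no pairing for the libraries. The log2 ratio of Psmb8 to Psmb5 differed by -0.14 to 0.22 between groups leaving out 1 library, with the sign reversed without Ctr 1 (-0.14, exact p = 0.8) and without αGlu 1 (-0.14, exact p = 0.6), while Psmb9 to Psmb6 ran from 0.23 (without Ctr 1) to 0.62 (without Ctr 3) and Psmb10 to Psmb7 from -0.87 (without αGlu 1) to -0.26 and -0.23 (without αGlu 2 and αGlu 3). Scaled by library size alone, the median log2 fold change was 0.10 over all genes and 0.41 over the class I genes. Among 15 alternatives H2-D1, Tapbp and Psmb10 stayed below 0 and H2-K1, Tap1, Tap2, Psmb8 and Psmb9 above it. Each class I gene had at least 970 counts in every library.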
